A study of Mus musculus with 4 samples.

Results

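The genes described are the E protein genes *Tcf3*, *Tcf4* and *Tcf12* and the Id genes *Id1*, *Id2* and *Id3*, 6 of the 55367 gene symbols counted in each library, chosen as a named family and matched on gene symbol. The libraries come from C57BL/6 spleen, from which peripheral CD4+ T cells were sorted, and the labels give 2 as wild type (WT) and 2 as conditional knockout of *Satb1* (cKO), with no treatment. The study crosses a *Satb1* F/F allele to the *Thpok-cre* driver, which is active once thymocytes commit to the CD4 lineage, so every CD4+ T cell, Treg cells included, is a target. The study's methods speak of adult mice of mixed sex, but the labels of these libraries name neither the Cre driver, the sex nor the age, and they do not say whether the WT mice carried Cre or a floxed allele. Total gene counts ran from 4495902 to 6555699, so that 1 count was worth 0.153 to 0.224 CPM, the count scaled to a common library total. A library with 3 counts or fewer was treated as at the floor.

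E proteins are basic helix-loop-helix (HLH) transcription factors that pair with each other and bind E-box DNA. Id proteins carry the HLH part without the basic part, so they pair with E proteins and keep them off DNA. In T cells E proteins set developmental checkpoints and Id proteins relieve them after receptor signalling. *Id2* and *Id3* are the main Id genes of lymphocytes. In CD4+ T cells *Id2* is linked to effector fates and *Id3* to naive, follicular helper and Treg states. *Tcf3* and *Tcf12* (encoding HEB) are the E protein genes used most by T cells, while *Tcf4* is best known from B cells and from plasmacytoid dendritic cells, whose identity depends on it.

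The E-box, written CANNTG, is the DNA element that E proteins bind and that Id proteins keep them off. The promoter windows of the members were therefore read for it. RefSeq windows on GRCm38.p6, from 250 bases before to 50 after the start, were matched for 4 of the 6 members, namely *Id2*, *Id3*, *Tcf3* and *Tcf12*. On both strands, CANNTG was found in 72.3% of 32841 mouse promoter windows of 300 bases, and its form CAGCTG, which is a subset of it, in 16.3%. The *Id2* window held a single E-box, of the CAGCTG form, at position -196 from the start. The *Tcf3* window held a single one at position -54, and the first of 3 *Tcf12* windows held a single one, of the CAGCTG form, at position -240. The second *Tcf12* window held 2, at positions -149 and 19, and the third held 1, at position -5. The *Id3* window held 0 matches to CANNTG, and its TATAA, a sequence found on either strand in 24.9% of windows, lay at position -29. The stretches show the matches of *Id3*, *Id2*, *Tcf3* and the first *Tcf12* window in the genes' own sequence, and no relation between them and the calls below was tested. Capitals mark the matched letters and all stretches read 5′ to 3′ on the strand of the gene.
*Id3*, chr4:136143781-136143809, plus strand: tagagaggactcTATAAgagtcggccgct
*Id2*, chr12:25096271-25096300, minus strand: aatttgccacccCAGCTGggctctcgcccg
*Tcf3*, chr10:80433672-80433701, minus strand: agtgggcgtggtCACTTGggggcgtggctt
*Tcf12*, chr9:72112042-72112069, minus strand: agatgctgccCAGCTGcgtccccgtcgc

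These matches describe letters in short windows, and binding was not measured here.

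Checks on the libraries come first, because every direction below follows the labels. *Satb1*, the targeted gene, had 868 and 984 CPM in WT and 945 and 847 CPM in cKO, a log2 ratio of cKO to WT of -0.05 (SE 0.12, adjusted p = 0.877 by edgeR), so its gene-level count does not check the label. *Xist* had 5447 and 4235 counts in WT and 9 and 6 in cKO, and the 4 Y-linked genes examined had 0 or 1 count in WT and 138 to 597 in cKO. Sex, as read from these transcripts, and genotype therefore cannot be told apart in the values that follow. Defining CD4 T cell markers summed to 4365 and 4366 CPM in WT and 4185 to 4565 CPM in cKO. B cell markers, mostly *Cd74*, summed to 39.8 and 47.1 CPM in WT against 196 CPM in cKO 1 and 77.6 CPM in cKO 2. Myeloid markers summed to 30.4 and 39.2 CPM in WT against 101 and 60.2 CPM in cKO.

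Between genotypes, *Id3* and *Tcf4* were up-regulated in the libraries labelled cKO, *Id3* by 1.79-fold and *Tcf4* by 2.87-fold. *Tcf3*, *Tcf12* and *Id2* did not pass the test. *Id1* was near the floor and was not tested. Thus 2 of the 5 members that passed the low-count filter were called, both higher, where 4.3% of the 12403 genes tested were called in either direction and 2.35% were called higher. The test was the edgeR quasi-likelihood test at an adjusted p under 0.05 over all tested genes. For 4 of the 5 the libraries of the genotypes did not overlap, as for 50.3% of all tested genes. For 3 of the 5 they did not overlap and were higher in cKO, as for 24.8% of all tested genes.

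**Figure D1:**
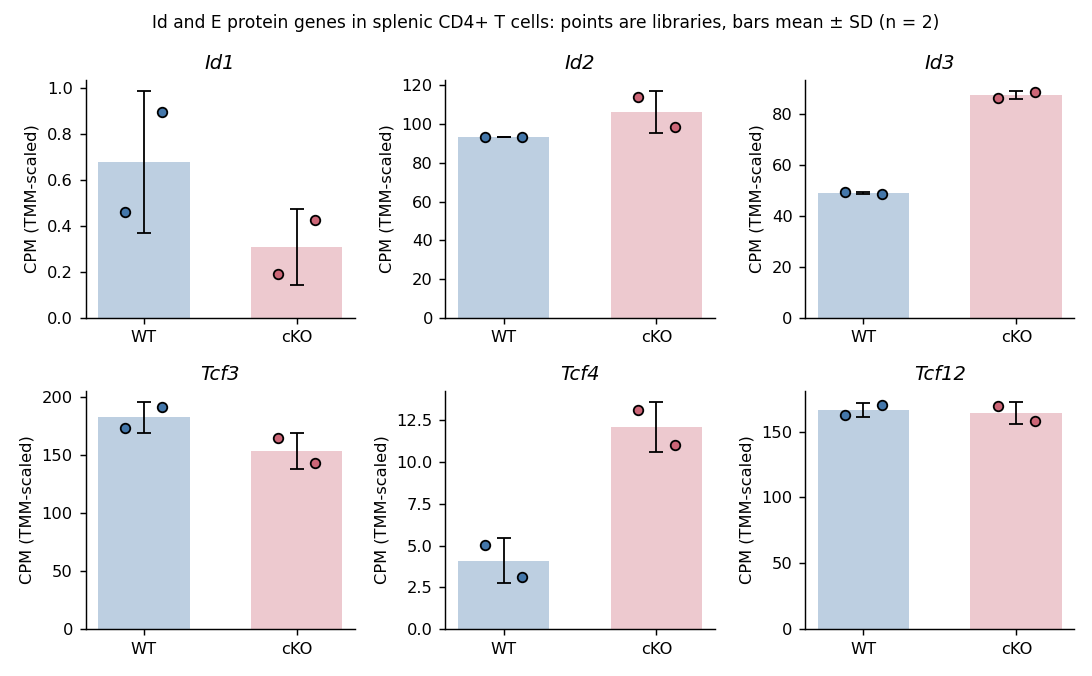
Expression of the 6 genes in CPM on TMM-scaled library sizes, with a point per library, bars at the mean and error bars of 1 SD (n = 2 per genotype). *Id3* sits at 48.6 and 49.1 CPM in WT and 86.1 and 88.4 CPM in cKO, and *Tcf4* at 3.14 and 5.05 CPM in WT and 11.1 and 13.1 CPM in cKO.

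Among the inhibitors, *Id3* gave the tightest separation. The gene (ENSMUSG00000007872.3, chromosome 4, 136143497 to 136145755, plus strand of GRCm38 in GENCODE M21, protein coding) encodes an Id protein that is induced by T cell receptor and TGF-beta signals. It had 321 and 217 counts in WT and 452 and 416 in cKO, or 49.1 and 48.6 CPM against 86.1 and 88.4 CPM. The WT libraries lay close together, as did the cKO libraries, and the groups did not overlap. Means were 48.9 ± 0.338 CPM (SD, n = 2) in WT and 87.3 ± 1.62 CPM (SD, n = 2) in cKO. The log2 ratio was 0.84 (SE 0.11, 95% interval 0.59 to 1.09, edgeR adjusted p = 0.00511), and the gene ranked 96 by p among the 12403. With WT 2 left out the value was 0.83 and the adjusted p = 0.0581, above the threshold of 0.05, and without any other single library the call stayed. With cKO 1 left out, the library highest in B cell and myeloid markers, the value was 0.85 with adjusted p = 0.000588. Of 8 Treg markers, 8 had a positive log2 ratio and 5 were called higher, of which *Foxp3* alone was called without WT 2. The sum of the 8 was 517 and 435 CPM in WT and 918 and 1146 CPM in cKO. *Foxp3* made up much of that difference, and the other 7 markers summed to 375 and 314 CPM in WT and 513 and 599 CPM in cKO. The paper reports *Foxp3* expression, after loss of SATB1, in CD4+ cells without suppressive activity, so *Foxp3* does not measure Treg cells alone. For splenic CD4+ T cells its own analysis found no significant change in the remaining Treg signature genes. Here *Ctla4*, *Nrp1*, *Tnfrsf18* and *Tnfrsf4* were called higher in edgeR. *Ikzf2*, also a Treg marker, had 77.4 and 64.1 CPM in WT against 70.3 and 146 CPM in cKO, so its groups overlapped. The part of Treg cells in the *Id3* result was not tested, and in bulk RNA a change in the share of a cell type and a change in RNA per cell cannot be told apart.

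*Id2* (ENSMUSG00000020644.9, chromosome 12, 25093799 to 25097140, minus strand, protein coding) encodes the Id protein needed by innate lymphoid and natural killer (NK) cells and by many effector T cells. It had 609 and 416 counts in WT and 598 and 464 in cKO, or 93.1 and 93.2 CPM against 114 and 98.6 CPM. Both cKO libraries lay above both WT libraries, cKO 2 by the smaller margin. The log2 ratio was 0.19 (SE 0.11, edgeR adjusted p = 0.406). The fold of 1.14 had an interval of 0.956 to 1.36, so it includes no difference. Markers of NK and innate lymphoid cells went the other way, with a sum of 60.3 and 54.0 CPM in WT and 15.2 and 18.1 CPM in cKO. In that list *Klra8* was at 0 counts in every library, and *Ncr1* and *Klre1* were at or under the floor in every library. The 3 tested genes were all negative with 2 called, *Eomes* and *Gzma*. These 2 made up most of the sum in every library, so the sum mainly describes them. *Klrb1c*, the remaining tested gene, was not called (edgeR adjusted p = 0.437). The part of NK and innate lymphoid cells in the *Id2* value was not tested.

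*Id1* (ENSMUSG00000042745.9, chromosome 2, 152736251 to 152737410, plus strand, protein coding), the Id gene most typical of endothelial and progenitor cells, had 3 and 4 counts in WT and 1 and 2 in cKO. That is 0.459 and 0.896 CPM against 0.191 and 0.425 CPM. All libraries were at or within 1 count of the floor. Pooled by genotype, the ratio of cKO to WT was 0.474 with an exact interval of 0.0790 to 2.08 that covers counting error only, so no difference was detectable at this depth. In the edgeR fit without a low-count filter its log2 ratio was -1.05 (adjusted p = 0.804). *Id4*, the remaining Id gene and not a member, had 0 counts in all libraries, which allows up to 0.459 to 0.672 CPM, depending on the library.

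Among the E protein genes, *Tcf4* rose. The gene (ENSMUSG00000053477.17, chromosome 18, 69343356 to 69689079, plus strand, protein coding) had 33 and 14 counts in WT and 69 and 52 in cKO, or 5.05 and 3.14 CPM against 13.1 and 11.1 CPM. Both cKO libraries lay well above both WT libraries. Means were 4.09 ± 1.35 CPM (SD, n = 2) in WT and 12.1 ± 1.48 CPM (SD, n = 2) in cKO. The log2 ratio was 1.52 (SE 0.30, interval 0.83 to 2.21, edgeR adjusted p = 0.0280), and the gene ranked 355 by p. With WT 2 left out, the WT library with the lower level, the value was 1.26 with adjusted p = 0.192. Without WT 1 it was 1.95 with adjusted p = 0.00670.

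Because *Tcf4* is expressed in B cells and plasmacytoid dendritic cells, their markers stand beside it. Of 9 B cell markers 5 were tested, all with a positive log2 ratio, and 2 were called in edgeR, *Pax5* and *Cd74*, against 1 in DESeq2 and 0 in limma-voom. Without WT 2 neither was called, and without cKO 1 *Pax5* was not. *Cd79b*, not called, was lower in cKO 2 than in both WT libraries, and no marker of the list was at 0 in all libraries. Over the WT mean, the B cell sum was 4.5-fold in cKO 1 and 1.79-fold in cKO 2, whereas *Tcf4* was 3.21-fold in cKO 1 and 2.70-fold in cKO 2. *Cd74* made up most of the B cell sum in every library, with 22.9 and 27.1 CPM in WT, 115 in cKO 1 and 46.8 in cKO 2, so the sum mainly follows that gene. *Pax5*, a B cell identity factor, had 5 and 4 counts in WT, 53 in cKO 1 and 15 in cKO 2, and *Ebf1*, another, had 6, 3, 15 and 0 in the same order. *Cd22*, a B cell surface receptor, had 4.59 and 3.81 CPM in WT, 9.15 in cKO 1 and 10.6 in cKO 2, so it was at a similar level in both cKO libraries, as *Tcf4* was, whereas the summed markers were highest in cKO 1. With cKO 1 left out *Tcf4* had a log2 ratio of 1.38 (adjusted p = 0.0274). Of the plasmacytoid markers, *Siglech* had 1, 0, 3 and 0 counts, *Cox6a2* had 1, 1, 2 and 0, and *Klk1* had 0, 0, 1 and 0, all at or under the floor. *Spib*, which B cells also express, had 5, 3, 30 and 7 counts, and *Irf8*, shared with B and myeloid cells, had 24.0 and 18.8 CPM in WT and 28.01 and 31.67 CPM in cKO. The whole list of 8 summed to 128 and 123 CPM in WT and 96.6 and 112 CPM in cKO, with 1 of 4 tested genes called, *Ccr9*, which was lower in cKO. *Ccr9* and *Bst2*, which T cells also express, made up most of that sum in every library. Myeloid markers had 6 of 8 tested genes positive and 4 called in edgeR, all higher. DESeq2 and limma-voom each called 3, as *Cybb* lost its call in DESeq2 and *Lyz2* in limma-voom. In cKO 2, the library that remains when cKO 1 is left out, the B cell sum was still 1.79-fold and the myeloid sum 1.73-fold the WT mean. The part of B and myeloid cells in the *Tcf4* value was not tested.

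**Figure D2:**
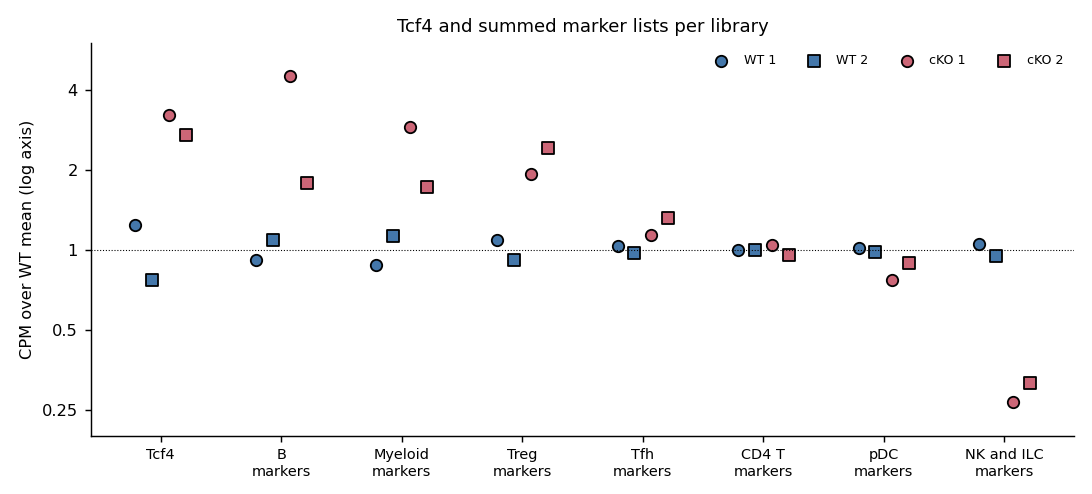
*Tcf4* and the summed CPM of marker lists in each library, divided by the mean of the WT libraries, on a log axis, where Tfh is T follicular helper, pDC plasmacytoid dendritic cell and ILC innate lymphoid cell. *Tcf4* is at 3.21 and 2.70 in cKO 1 and cKO 2, while the B cell sum is at 4.5 and 1.79 and the plasmacytoid sum at 0.770 and 0.893. *Cd74* makes up most of the B cell sum in every library, and *Ccr9* and *Bst2* together most of the plasmacytoid sum.

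*Tcf3* (ENSMUSG00000020167.14, chromosome 10, 80409514 to 80433647, minus strand, protein coding) encodes the E protein forms that arise by alternative splicing of the bHLH exon, which a gene count does not separate. It had 1131 and 854 counts in WT and 864 and 671 in cKO, or 173 and 191 CPM against 165 and 143 CPM. All cKO values lay under all WT values, with the gap between WT 1 and cKO 1 smaller than the spread within either group. The log2 ratio was -0.24 (SE 0.11, interval -0.50 to 0.01, edgeR adjusted p = 0.281). Without cKO 1 the value was -0.35 with adjusted p = 0.0422, and over all alternatives the adjusted p ran from 0.0422 to 0.854.

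*Tcf12* (ENSMUSG00000032228.16, chromosome 9, 71842688 to 72111871, minus strand, protein coding) encodes the partner with which the *Tcf3* products most often pair in thymocytes. It had 1064 and 759 counts in WT and 891 and 743 in cKO, or 163 and 170 CPM against 170 and 158 CPM. The groups overlapped. The log2 ratio was -0.02 (SE 0.10, edgeR adjusted p = 0.937), with an interval of the fold from 0.845 to 1.15. No member's exons overlap another annotated gene on either strand in GENCODE M21.

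**Figure D3:**
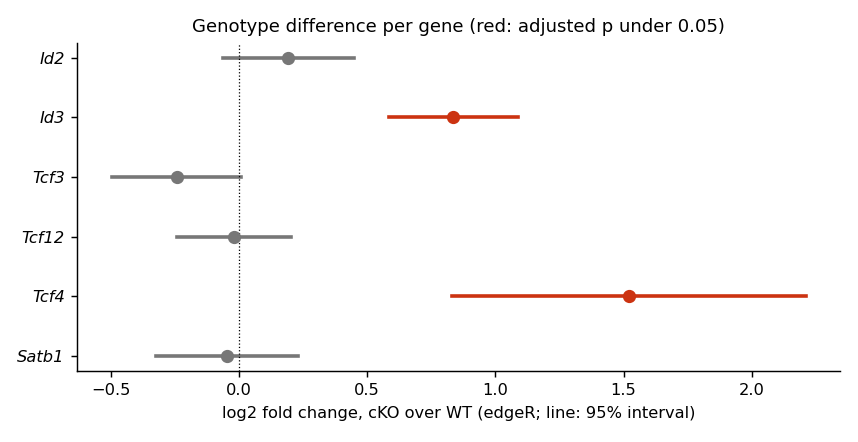
Log2 fold change of cKO over WT for the 5 tested members and *Satb1*, with points at the edgeR estimate and lines at the 95% interval, red for an adjusted p under 0.05. *Id3* at 0.84 and *Tcf4* at 1.52 lie to the right of 0 with intervals that do not reach it, and the intervals of *Id2*, *Tcf3*, *Tcf12* and *Satb1* cross it.

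To set the inhibitors against their partners, levels were expressed as CPM per kilobase of merged exons. On this scale *Tcf3* ran from 35.3 to 47.4, *Id2* from 38.2 to 46.7 and *Id3* from 27.1 to 49.4 over the 4 libraries, and these ranges overlap. *Tcf12* followed at 10.2 to 11.0, then *Id1* at 0.164 to 0.773 and *Tcf4* at 0.115 to 0.480, which again overlap. In WT the order was *Tcf3*, *Id2*, *Id3* in both libraries. In cKO *Id3* was the highest of all members in both libraries, at 48.1 in cKO 1 and 49.4 in cKO 2. The summed Id level was 66.0 and 66.2 in WT and 94.99 and 90.19 in cKO, and the summed E protein level was 53.5 and 58.4 in WT and 52.2 and 45.9 in cKO.

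The ratio of Id to E protein transcripts was therefore 1.23 and 1.13 in WT and 1.82 and 1.97 in cKO, with means of 1.18 ± 0.0722 (SD, n = 2) and 1.89 ± 0.102 (SD, n = 2). The genotypes did not overlap. With 2 libraries against 2 an exact permutation test cannot give a p under 0.333, so the ratio is given as a description. Its level rests on the gene lengths, as means were 0.973 and 1.54 with the longest transcript and 0.405 and 0.589 with no length, while cKO stayed above WT on each scale. *Id3* made up 41.5% and 41.0% of the Id pool in WT and 50.6% and 54.7% in cKO. *Id3* was thus below *Id2* in both WT libraries and above it in both cKO libraries, with an *Id3* to *Id2* ratio of 0.718 and 0.710 against 1.03 and 1.22. On the longest transcript it was also below 1 in WT and above 1 in cKO, at 0.812 and 0.804 against 1.16 and 1.38, and with no length it was below 1 in all libraries. *Tcf4* made up 0.345% and 0.196% of the E protein pool in WT and 0.920% and 0.880% in cKO, a small part of the pool in every library. *Tcf3* made up 77.0% to 81.1% of it on this scale, 64.7% to 70.3% with the longest transcript and 45.8% to 52.5% with no length. With no length *Tcf12* was below *Tcf3* in WT and above it in cKO, with ratios of 0.941 and 0.889 against 1.03 and 1.11, while it was below *Tcf3* in all libraries on both length scales. The share of *Tcf4* was at most 1.82% with the longest transcript and 3.78% with no length, and on each scale it was higher in both cKO libraries than in both WT libraries.

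**Figure D4:**
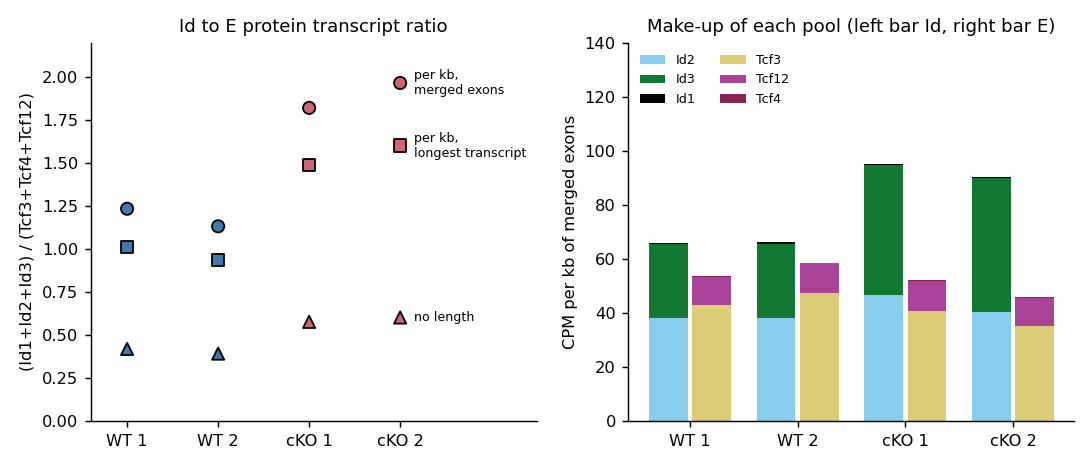
Left, the ratio of summed Id to summed E protein transcripts in each library on 3 length scales, and right, the levels that make up each pool in CPM per kilobase of merged exons. Per kilobase of merged exons the ratio is 1.23 and 1.13 in WT and 1.82 and 1.97 in cKO, and the stacked bars show that *Id3* accounts for most of the added Id level.

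Other genes of the pathway were counted from 4 lists, beside the share of 4.3% over all tested genes. Of 13 HLH partners, 4 passed the low-count filter and 0 were called in edgeR, with 1 at an unadjusted p under 0.05. In DESeq2 0 were called and in limma-voom 0. The list also holds *Lmo2*, *Lmo4* and *Ldb1*, which are not HLH genes. *Tal2*, *Ascl2*, *Msc*, *Bhlhe41* and *Twist1*, HLH genes best known from other tissues, were at or under the floor in every library. *Lmo4*, a LIM-only adaptor, had 36.4 and 35.2 CPM in WT and 60.0 and 47.6 CPM in cKO, with a log2 ratio of 0.59 (adjusted p = 0.0636). *Lyl1*, a blood HLH factor, had 0.35 with adjusted p = 0.712, and *Bhlhe40*, an HLH repressor of activated T cells, had 0.30 with adjusted p = 0.555. The median log2 fold change of the 4 tested genes of this list, *Lmo4* and *Ldb1* among them, was 0.32, against -0.0015 over all tested genes.

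Of 9 cofactors 8 were tested and 0 were called in edgeR, with 4 at an unadjusted p under 0.05, 0 called in DESeq2 and 0 in limma-voom. *Crebbp*, a histone acetyltransferase bound by E protein activation domains, had 358 and 350 CPM in WT and 467 and 436 CPM in cKO, a log2 ratio of 0.35 (adjusted p = 0.0905). *Cbfa2t2* and *Cbfa2t3*, of the ETO family of E protein corepressors, had 0.44 with adjusted p = 0.147 and 0.64 with adjusted p = 0.546. The median of the list was 0.18.

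Of 16 genes upstream of Id genes or acting on Id protein stability, 15 were tested and 1 was called. *Cdc20*, which activates the anaphase-promoting complex, a complex known to mark Id proteins for degradation, and is expressed in dividing cells, had 17.0 and 17.5 CPM in WT and 8.0 and 9.78 CPM in cKO. Its log2 ratio was -0.96 (SE 0.22, edgeR adjusted p = 0.0456), and the call was lost in DESeq2 and without WT 1, WT 2 or cKO 1, with adjusted p from 0.00171 to 0.266 over all alternatives. *Egr2*, an early T cell receptor response gene, had 48.9 and 34.1 CPM in WT and 64.4 and 49.5 CPM in cKO, so that the groups were separated by less than 1 CPM, with a log2 ratio of 0.44 (adjusted p = 0.255). *Egr1*, which is known to induce *Id3*, had 249 and 193 CPM against 251 and 190 CPM, so the genotypes overlapped, with -0.01 and adjusted p = 0.987. *Smad1*, a BMP signal transducer, had 0.42 with adjusted p = 0.207, and the median of the list was 0.11.

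Of 27 genes known as E protein or Id targets in T cells, 23 were tested and 6 were called, 5 higher and 1 lower, while the median of the list was 0.07. *Foxp3*, the X-linked Treg factor gene at which E proteins and *Id3* have been placed, had 142 and 121 CPM in WT and 405 and 547 CPM in cKO, a log2 ratio of 1.86 (adjusted p = 0.000447). *Cxcr4*, a chemokine receptor gene that E proteins activate in thymocytes, had 223 and 205 CPM against 623 and 445 CPM, a log2 ratio of 1.31 (adjusted p = 0.00326). *Il7r*, the IL-7 receptor gene, had 365 and 486 CPM against 1052 and 697 CPM, with 1.04 and adjusted p = 0.0257.

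In these called genes all cKO libraries lay above all WT libraries, *Foxp3* and *Cxcr4* by the widest margins. *Zbtb7b*, the ThPOK gene, rose by 0.66 with adjusted p = 0.0117. Its value carries a limit, since the Cre driver of the study is built on that gene. *Bcl6*, the follicular helper repressor gene, rose by 0.61 with adjusted p = 0.0361.

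*Ccr7*, a lymph node homing receptor gene, fell by 0.62 on the log2 scale from 553 and 604 CPM to 403 and 349 CPM, with adjusted p = 0.0199. Over the tested list 15 values were positive and 8 negative. Without WT 2 only 3 of the list were called, and without cKO 1 or without cKO 2 there were 10. *Foxp3* and *Cxcr4* kept their calls in each alternative that gave them a value. *Bcl6* lost its call in DESeq2, on thinned counts and without WT 1 or WT 2, *Il7r* in DESeq2, and *Ccr7* and *Zbtb7b* without WT 2. The thymocyte genes *Rag2* and *Ptcra* had at most 4 and 1 counts in a library, and *Rag1* had 35, 38, 52 and 26.

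**Figure D5:**
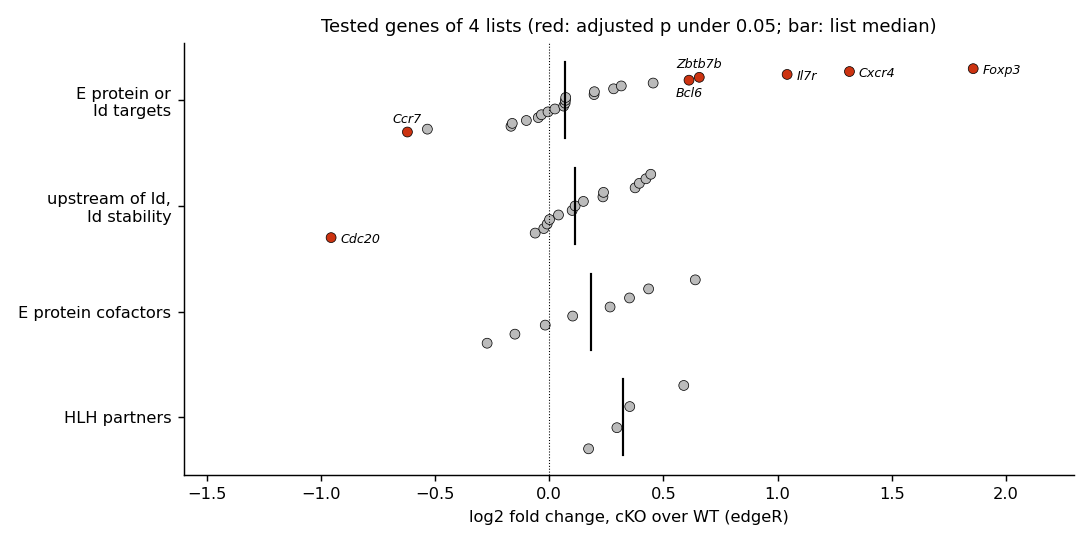
Log2 fold change of cKO over WT for the tested genes of 4 lists, with red for an adjusted p under 0.05 and a bar at the list median. The called genes are *Cdc20* among 15 tested upstream and stability genes and 6 of 23 tested targets, from *Ccr7* at -0.62 to *Foxp3* at 1.86.

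The genes whose profile over the 4 libraries was most like that of each called member were found by Euclidean distance between centred log2 CPM values, among genes with a mean of at least 10 CPM. For *Id3* these were *Soat1*, *Trim65*, *H2-K2*, *Smpdl3a* and *Smap1*, at distances of 0.0285 to 0.0688. *Soat1*, which encodes an enzyme of cholesterol ester synthesis, had 51.5 and 51.8 CPM in WT and 89.9 and 91.6 CPM in cKO, a log2 ratio of 0.81 beside the 0.84 of *Id3*. *H2-K2* belongs to the MHC class I family, whose members share reads, so its count is uncertain. For *Tcf4* they were *Fgd6*, *Gch1*, *Rgs1*, *Gm16731* and *Cmtm4*, at larger distances of 0.144 to 0.297. *Rgs1*, which encodes a regulator of G protein signalling, had 20.8 and 12.8 CPM in WT and 49.7 and 50.8 CPM in cKO. The 5 genes nearest *Id3* were called higher, as were the 5 nearest *Tcf4*, which likeness to a called gene fixes in advance. With 4 libraries such a likeness is a description only.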

How the data were processed

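The authors aligned 50-base reads to mm10 with HISAT2 2.1.0 and counted reads per gene with HTSeq 0.11.1 (both versions as in the submitters' processing notes). They deposited raw counts per gene symbol, 1 table per library, and neither annotation nor strand setting is given in the sources used here. The 5 HTSeq summary lines were kept out of library sizes and tests. Of reads aligned once, 59.4% to 64.5% fell outside features.

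Counts were analysed in R 4.3.3 with edgeR 4.0.16 (filterByExpr, TMM scaling, quasi-likelihood F test on genotype, two-sided, Benjamini-Hochberg adjustment over 12403 genes). DESeq2 1.42.0 and limma 3.58.1 served as alternatives, and plots used matplotlib 3.10.9. The SE is the absolute log2 fold change over the square root of F, and intervals are at a level of 0.95. Single libraries were left out in edgeR fits, where the lone library of a genotype is assumed to vary like the others. Positions and exon lengths came from GENCODE M21 (GRCm38). The procedure was tested on simulated counts.

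The members and lists were chosen with earlier results of these data known. Named were the members, *Satb1*, list genes called or among the 3 largest changes of their list, and the 5 genes most like each called member. A gene of the target list is not reported here and was left out of its counts. Single marker and sex-linked genes, the list genes at the floor, *Lmo2*, *Ldb1*, *Egr1* and the thymocyte genes were named after their values were seen. The study describes its replicates as biological, from independent mice unless otherwise specified, while the labels name no mouse for these libraries, and p-values measure the spread between them. The reads carry no molecular identifiers, so counting intervals and floors treat PCR copies as separate molecules and cover counting error alone.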

Additional observations from a re-analysis of the deposited data

How the results depend on the processing

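Of 65 values of the tested members under alternatives, 60 kept their direction and their side of the threshold, and the exceptions all came from leaving out 1 library. Without WT 2, *Id3* (0.83, adjusted p = 0.0581 in edgeR) and *Tcf4* (1.26, 0.192) no longer passed and *Tcf12* changed sign (0.010), as did *Satb1* (0.045). Without cKO 2, *Tcf12* (0.032) and *Satb1* (0.031) changed sign. Without cKO 1, *Tcf3* passed (-0.35). Over the 4 such fits, *Id2* ran from 0.08 to 0.29, *Id3* from 0.82 to 0.85, *Tcf3* from -0.35 to -0.14, *Tcf4* from 1.26 to 1.95, *Tcf12* from -0.074 to 0.032 and *Satb1* from -0.13 to 0.05. In the other fits *Id3* ran from 0.79 to 0.84 and *Tcf4* from 1.51 to 1.71, and both were called in each. The number of members called, 2, lay between 0 and 3 in the fits that omit a library.

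Calls over all genes, 533, were 1367 without a low-count filter and 1165 with the replicate block, and lay between 174 and 1583 with a library omitted. Called HLH partners, 0, were 1 without a filter and 1 with the block, and ran from 0 to 2. Called cofactors, 0, were 1 without a filter and ran from 0 to 2. Called upstream genes, 1, were 2 without a filter, 2 with the block and 0 in DESeq2, and ran from 0 to 4. Called targets, 6, were 8 without a filter, 8 with the block, 5 without X and Y genes and 4 in DESeq2, and ran from 3 to 10. For none of these counts was the cause tested. The Id to E protein ratio, 1.18 in WT and 1.89 in cKO, was 0.973 and 1.54 with the longest transcript and 0.405 and 0.589 with no length, and lay between 1.13 and 1.23 and between 1.82 and 1.97 with a library omitted.

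Same-numbered libraries deviated together by a correlation of 0.0643 across genes, the labels tie no number to a shared animal or day, and the replicate block changed no member's call. For *Id1* no difference was detectable at this depth.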

Other observations

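Markers of other T cell states were also summed. Of 5 T follicular helper markers, 2 were called in edgeR, *Bcl6* and *Pdcd1*, both higher in cKO. *Cxcr5*, *Icos* and *Tox2* were not called, with log2 ratios of 0.02, 0.14 and 0.06, and their groups overlapped. The list summed to 237 and 222 CPM in WT and 261 and 301 CPM in cKO. The paper reports *Pdcd1* derepressed in CD4+ T cells without SATB1, non-Treg cells included, so *Pdcd1* does not measure follicular helper cells alone. Of 5 naive T cell markers, *Il7r* was called higher and *Ccr7* lower, and the sums of 5500 and 6119 CPM in WT and 6381 and 4589 CPM in cKO overlapped. Of 7 tested memory or activation markers, *Cd69* was called higher and *S100a6* and *Ccl5* lower, with overlapping sums of 760 and 687 CPM in WT and 729 and 939 CPM in cKO. *Cd8b1*, which marks CD8 T cells, was called lower. It made up most of the CD8 list of 2 genes, which summed to 47.7 and 58.5 CPM in WT and 34.3 and 26.8 CPM in cKO. The other gene, *Cd8a*, had 5.35 and 6.50 CPM in WT and 6.86 and 4.25 CPM in cKO, so its groups overlapped. Its log2 ratio was -0.07 (edgeR adjusted p = 0.941). Without WT 2 the calls of *Bcl6*, *Pdcd1*, *Ccr7*, *Cd69* and *Cd8b1* were lost, and DESeq2 lost those of *Bcl6* and *Il7r*, while *S100a6* and *Ccl5* were called in each alternative. The lists hold genes that are also E protein targets, *Bcl6*, *Il7r* and *Ccr7* among them. The part of these states in the values of *Id3* and *Tcf4* was not tested.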
